A study of Mus musculus with 3 samples.

Results

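Endothelial cells caught in the cell cycle were a small group in knee synovium and infrapatellar fat pad: 101 of 30197 cells that passed the filters, and 101 of 3241 endothelial cells. A barcode passed with at least 500 detected genes and at most 10% mitochondrial UMIs (unique molecular identifiers, each standing for 1 captured RNA molecule). An endothelial cell had at least 3 UMIs of Cdh5 and Pecam1 together, no UMI of the leukocyte gene Ptprc, and less than 0.2% of its UMIs from the fibroblast genes Col1a2, Col3a1 and Dcn. A dividing cell had in addition at least 3 UMIs of Mki67 and Top2a together, and was set against the endothelial cells of its own library with 0 UMIs of both genes, called non-dividing here. The members were thus chosen by measured values, and every gene contrast between dividing and non-dividing cells below is a description of the chosen cells, without a test. Of the 101 cells, 5 came from the control library (of 981 endothelial cells), 84 from the 1-week library (of 1332) and 12 from the 2-month library (of 928). The non-dividing cells numbered 926, 1099 and 871, and the 50, 149 and 45 endothelial cells with 1 or 2 UMIs of Mki67 and Top2a entered neither side.

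All 3 libraries were 10x Genomics single-cell RNA libraries from wild-type mice. The control mice were 2 months old. The operated mice underwent DMM (destabilisation of the medial meniscus, a knee operation used to model osteoarthritis after injury) at 2 months of age and were harvested 1 week or 2 months later, so the 2-month group was also older than the others. Each library held tissue pooled from 5 to 10 mice, digested with trypsin-EDTA and collagenase I and sorted for live cells. Each group was thus 1 library without replicates, and no difference between groups could be tested. The 95% intervals below cover counting error only and hold nothing of the variation among mice. The labels used here name neither the sex of the mice nor a sham group.

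Endothelial cells line blood and lymphatic vessels. Most of them rest outside the cell cycle in adult tissue, and they re-enter it when vessels grow or repair. In the cycle, E2F factors drive genes for DNA replication, and the DREAM and MMB-FOXM1 complexes hold back and later switch on genes for mitosis, the latter often through a promoter element called CHR (cell cycle genes homology region) next to CCAAT boxes bound by NF-Y. Sprouting vessels carry tip-like endothelial cells marked by genes such as Apln and Esm1, whereas resting venules are marked by Ackr1, Selp and Vwf.

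Promoters of 4 genes are shown here because their windows hold the 3 elements that the 2 main groups of genes below are known for. Each is the 250 bases before the RefSeq start site on GRCm38.p6, 5′ to 3′ on the gene's strand. Capitals mark CHR (TTTGAA) and CCAAT matches in Mki67, Cdk1 and Ube2c, and E2F matches (TTCCCGC or TTGGCGC) in Mcm5, on either strand, and matches may overlap. Mki67 at chr7:135716380-135716629 (minus strand) has CHR matches 116 and 98 bases before the start, Cdk1 at chr10:69352913-69353162 (minus strand) at 71 and 15 bases, and Ube2c at chr2:164769679-164769928 (plus strand) at 29 bases. Mcm5 at chr8:75109259-75109508 (plus strand) has E2F matches at 164 and 149 bases. Some further matches are left in small letters. These are E2F at 67 bases in Mki67 and at 178 bases in Cdk1, and CCAAT at 77 and 22 bases in Mcm5.
Mki67: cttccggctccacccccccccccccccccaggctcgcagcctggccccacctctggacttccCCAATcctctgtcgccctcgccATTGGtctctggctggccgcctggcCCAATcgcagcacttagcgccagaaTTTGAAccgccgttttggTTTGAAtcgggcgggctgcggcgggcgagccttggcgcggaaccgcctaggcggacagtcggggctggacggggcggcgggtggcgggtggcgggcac
Cdk1: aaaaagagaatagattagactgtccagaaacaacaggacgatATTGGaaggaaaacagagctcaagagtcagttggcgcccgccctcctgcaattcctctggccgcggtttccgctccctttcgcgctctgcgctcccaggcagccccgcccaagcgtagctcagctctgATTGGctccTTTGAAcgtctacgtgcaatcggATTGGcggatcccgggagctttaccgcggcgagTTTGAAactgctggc
Ube2c: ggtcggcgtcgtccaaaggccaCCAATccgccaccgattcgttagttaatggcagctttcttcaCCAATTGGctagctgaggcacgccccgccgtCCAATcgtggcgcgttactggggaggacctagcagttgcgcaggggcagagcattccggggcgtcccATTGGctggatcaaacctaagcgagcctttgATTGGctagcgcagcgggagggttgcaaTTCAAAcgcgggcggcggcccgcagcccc
Mcm5: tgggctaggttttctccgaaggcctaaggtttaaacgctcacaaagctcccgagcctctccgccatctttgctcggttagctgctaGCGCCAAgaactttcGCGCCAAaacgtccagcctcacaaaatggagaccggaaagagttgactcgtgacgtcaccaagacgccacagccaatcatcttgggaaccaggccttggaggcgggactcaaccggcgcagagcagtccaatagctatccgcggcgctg

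These matches were common in the fixed lists of mitotic and replication genes, counted whether or not a gene was measured in the cells. In windows of 300 bases, from 250 before to 50 after the start, a CHR match lay in 65.4% of 52 genes of the 4 mitotic lists with a window, against 18.1% of 27025 genes of the table and 11.2% of the 8228 genes measured in the 1-week contrast. Spindle and cytokinesis genes held it most often of these lists, in 16 of 18 windows (88.9%). A CCAAT match lay in 75.0% of the mitotic windows against 37.9% of all windows, and both elements together in 53.8% against 7.12%. An E2F match lay in 42.1% of 38 windows of the 3 replication lists, against 6.93% of all windows and 13.1% of windows of measured genes. CCAAT was not confined to mitotic genes: it lay in 57.9% of these 38 windows, and in 9 of 11 licensing windows (81.8%). The tip and angiogenic genes held CHR in 1 of 14 windows (7.14%). The endothelial identity genes held it in 3 of 10 windows (30%), and both elements in 2 of 10. These are matches of letters and describe the windows only.

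The endothelial label was checked on genes the rule did not use. Of 19 other endothelial identity genes, members of the control had UMIs of 11 to 16, 1-week members of 11 to 19 and 2-month members of 16 to 19. Their sum was 6008 against 7635 CPM (UMIs per 1000000 UMIs summed over the cells) in the control, 6904 against 8341 CPM at 1 week and 8194 against 8855 CPM at 2 months, dividing against non-dividing. The rule's own genes are given as a description. Cdh5, the adherens junction cadherin of endothelium (VE-cadherin), lies on chromosome 8 at 104101625-104144511, and Pecam1, the junction protein CD31, on chromosome 11 at 106654217-106750628 (GRCm38, GENCODE vM21). Both were detected in 101 of 101 members, a count largely set by the choice of the cells. At 1 week Cdh5 stood at 947 CPM in dividing and 969 CPM in non-dividing cells, which had passed the same threshold, and Pecam1 at 1041 and 1179 CPM.

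The genes of the rule divided the cells as follows. Mki67, which coats mitotic chromosomes and is the classic proliferation antigen Ki-67, lies on chromosome 7 at 135689784-135716361. Top2a, the topoisomerase that untangles replicated DNA, lies on chromosome 11 at 98992943-99024189. Mki67 stood at 417, 434 and 673 CPM and Top2a at 778, 552 and 684 CPM in dividing cells of the control, 1-week and 2-month libraries. Both genes were detected in 3 of 5, 65 of 84 and 9 of 12 members. Just inside the threshold, 2, 8 and 2 members had exactly 3 UMIs of the pair, and just outside it 6, 26 and 9 endothelial cells had exactly 2. At the other end, 2, 50 and 7 members had 10 or more.

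Dividing cells had more UMIs than their non-dividing neighbours. The rule asked for at least 3 raw UMIs of Mki67 and Top2a against 0, which favours deeper cells as members. Its part in the difference in depth was not tested. The median was 18973, 20164 and 19284 UMIs per dividing cell against 7210, 9954 and 11487 per non-dividing cell in the control, 1-week and 2-month libraries. A CPM value is a share of a cell's RNA, so a gene with equal CPM had about 2.04 times as many UMIs per dividing cell at 1 week. Counted as UMIs per cell, the log2 ratio of every 1-week gene was 1.03 higher, and the median of all genes moved from 0.04 to 1.07. The median mitochondrial share was 2.30%, 3.53% and 2.99% in dividing and 2.15%, 3.79% and 3.70% in non-dividing cells. No member was called a doublet by Scrublet, which called 313, 507 and 460 cells in the libraries (3.86%, 4.12% and 4.70%). Of the barcodes that passed, 77 occurred in more than 1 library, and 1 member's barcode was among them.

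Other cell types left traces in a few members. At 1 week 2 members had over 10% haemoglobin UMIs (5614 and 2258 UMIs), which set Hbb-bs, a haemoglobin chain, at 2363 CPM in dividing against 27.9 CPM in non-dividing cells. In the control 1 of the 5 members had 44 UMIs of the 8 macrophage markers, the others at most 2, and Lyz2 was at 485 against 154 CPM. Single members had 56 mural-cell UMIs (1 week), 70 mural-cell UMIs (2 months) and 30 lymphatic UMIs (1 week), the next highest members 4, 1 and 6. Summed over members, the 7 fibroblast markers stood at 1341 against 4776 CPM in the control, 448 against 731 CPM at 1 week and 404 against 1809 CPM at 2 months, dividing against non-dividing. The 4 muscle progenitor markers were at 0 in each library, and 5 of 6 lymphocyte markers were at 0 in the 1-week members. The part of such cells in the values below was not tested, other than leaving out the 2 cells rich in haemoglobin.

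The share of endothelial cells that were dividing was highest at 1 week. It was 0.510% in the control (5 of 981 cells, Clopper-Pearson interval 0.166-1.19%), 6.31% at 1 week (84 of 1332, 5.06-7.75%) and 1.29% at 2 months (12 of 928, 0.670-2.25%). The 1-week share was 12.4 times the control share (conditional binomial interval 5.10-39.1) and 4.88 times the 2-month share (2.65-9.81). The 2-month share was 2.54 times the control share, with an interval from 0.832 to 9.19 that includes 1. Thinned to 5000 UMIs per cell, leaving out shallower cells, the shares were 0.574%, 4.02% and 0.826%, and the 1-week share was 7.0 times the control share. Among neutrophils, which no longer divide, 0 of 45, 1 of 280 (0.357%) and 2 of 376 cells (0.532%) met the same Mki67 and Top2a threshold. Their medians were 2445, 1635 and 3413 UMIs, against 7390, 10359 and 11645 in the endothelial gate. A threshold on raw UMIs depends on depth, so these shares give no background rate for endothelial cells. The interval of the control neutrophils reached 7.87%. The shares at 1 week and 2 months can also be set by which cells the digestion and sort released, and the gates removed 3, 50 and 11 cells that met the endothelial and dividing thresholds but held Ptprc or more fibroblast UMIs.

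Other stromal cells were dividing most often at 1 week too, and macrophages were not. By marker gates of the same kind, 0.323%, 6.55% and 0.887% of fibroblasts and 0.226%, 12.2% and 1.31% of mural cells (pericytes and smooth muscle) were dividing in the control, 1-week and 2-month libraries. The 1-week share was 20.3 times the control share in fibroblasts (10.9-42.7) and 53.7 times in mural cells (14.3-452). The interval of the endothelial ratio overlapped both. Among macrophages 9.01%, 8.27% and 10.6% were dividing, with a ratio of 1 week to control of 0.918 (0.676-1.26).

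**Figure D1:**
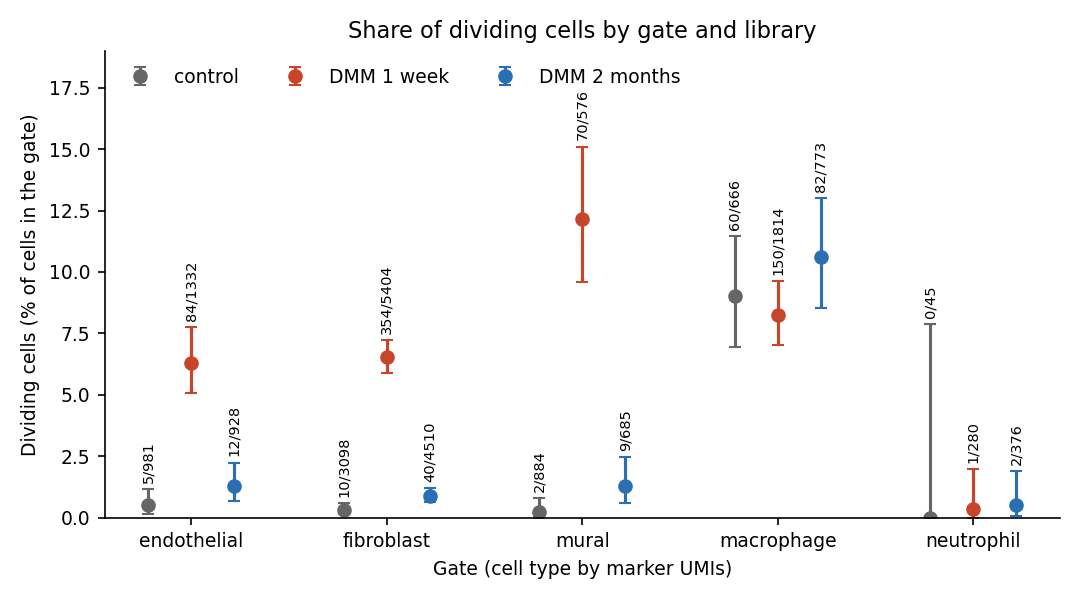
Share of dividing cells (percent of the cells in each gate, y axis) in endothelial cells, fibroblasts, mural cells, macrophages and neutrophils (x axis) of the 3 libraries (colours). Points are shares, bars are 95% Clopper-Pearson intervals and labels give dividing cells over cells in the gate. Endothelial cells, fibroblasts and mural cells stand highest at 1 week (6.31%, 6.55% and 12.2%).

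The members covered the cycle from replication to mitosis. Per 10000 UMIs, 47 genes of replication licensing, the replication fork and nucleotide supply gave 3.69 to 93.9 UMIs per member at 1 week (median 25.2), against a median of 6.55 in non-dividing cells. The 62 mitotic genes, without Mki67 and Top2a, gave 5.17 to 264 UMIs (median 63.0), against a median of 5.31. With the 95th percentile of non-dividing cells (12.9 and 11.0) as a line, 58 of 84 members lay above both lines, 3 above the replication line only, 16 above the mitotic line only and 7 above neither. At 2 months these numbers were 7, 0, 3 and 2 of 12, and in the control 3, 0, 0 and 2 of 5. The members above neither line had at most 7 UMIs of Mki67 and Top2a together.

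**Figure D2:**
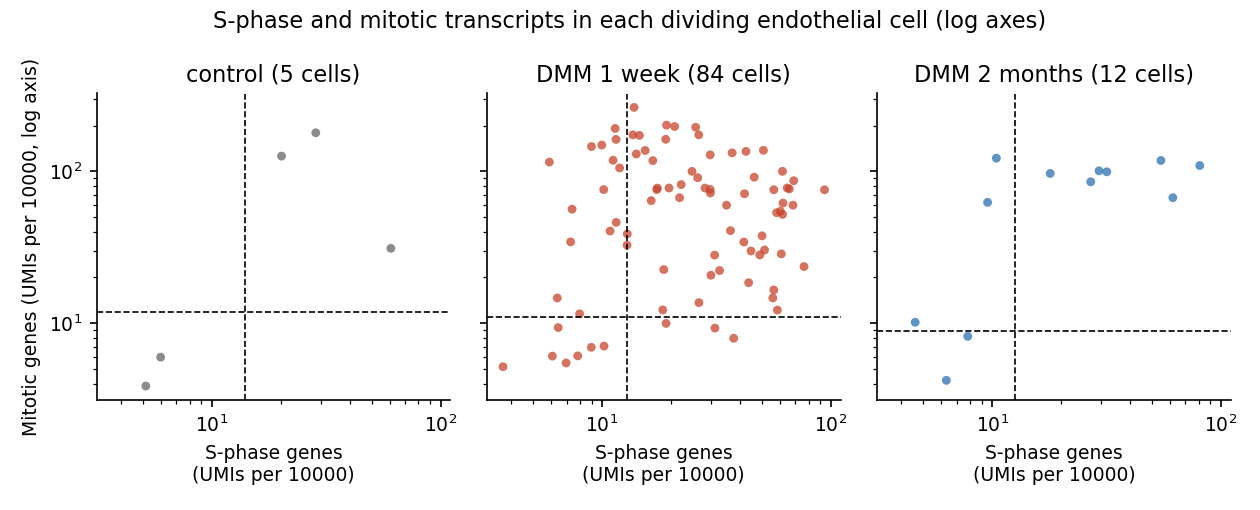
Each point is 1 dividing endothelial cell, by UMIs per 10000 of 47 S-phase genes (x, log axis) and 62 mitotic genes (y, log axis), 1 panel per library. Dashed lines are the 95th percentiles of non-dividing endothelial cells of that library. At 1 week 58 of 84 cells lie above both lines and 7 above neither.

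Narrower sets of 16 early genes (such as Ccne1, Cdc6 and Mcm5) and 16 late genes (such as Ccnb1, Plk1 and Ube2c), chosen after the values had been seen, split the 1-week members further. With at least 2 UMIs at 5000 UMIs per cell as the mark, 15 members carried the early set only, 34 both, 28 the late set only and 7 neither. Among 1019 non-dividing cells 54, 2, 17 and 946 did so. The linker histone gene Hist1h1b, made while DNA is copied, stood at 196 CPM in early-only members, 787 CPM in members with both and 191 CPM in late-only members. Rrm2, the ribonucleotide reductase subunit that supplies DNA precursors, stood at 102, 151 and 39.6 CPM in the same order. Vessel genes also differed between these classes, which were not tested: Apln stood at 232, 157 and 123 CPM, Esm1 at 33.1, 158 and 155 CPM, and Ackr1 at 9.46, 13.0 and 92.4 CPM. Of the Ackr1 UMIs in the 84 members, 37.7% came from 1 cell, and of the Esm1 UMIs 34.3%. The 7 members with neither set stood apart from the other classes, with Apln at 17.5 CPM, Esm1 at 0 of 114341 UMIs, Selp at 840 CPM (218 to 284 CPM in the others) and the 11 venular genes summing to 3621 CPM (1399 to 2439 CPM). Their Hist1h1b and Rrm2 were at 0. The median depth of the classes was 26754, 23100, 16559 and 14840 UMIs.

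Across the 10 cell-cycle lists, the mitotic cyclins and kinases, spindle and kinetochore genes had the highest medians at 1 week, while mitotic exit lay among the replication lists. The 4 measured erythroid markers, a list of another cell type, had a higher median still (log2 ratio 6.27), with the haemoglobin of 2 members described above. Of 10401 genes with at least 50 UMIs in the 1-week sums, 571 (5.49%) were at least 2-fold higher in dividing cells and 362 (3.48%) at least 2-fold lower, with counting intervals off 1. Of the 151 genes in 10 cell-cycle lists 140 had enough UMIs, and 122 of these were higher. A gene could reach 50 UMIs through the dividing sum alone, as Bub1 did with 121 UMIs against 2. A higher call was then largely set by the filter. This limits each count of higher cell-cycle genes given here and below. With 5 and 12 members, the other libraries give values only. Higher calls made up 61.2% of the calls on CPM, 99.1% on UMIs per cell and 71.6% against 163 non-dividing cells of like depth.

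Mitotic cyclins and kinases, which start and steer cell division, were higher in 15 of 15 measured list members at 1 week, with a median log2 ratio of 5.37. Cdk1, the kinase that drives entry into mitosis, stood at 214, 209 and 237 CPM in dividing cells of the control, 1-week and 2-month libraries and at 0.365, 9.78 and 1.21 CPM in non-dividing cells. Its 1-week ratio was 21.4 (17.4-26.5), and dividing and non-dividing intervals did not overlap in any library. Ccnb2, a B-type cyclin that partners Cdk1, stood at 282, 160 and 158 CPM against 0.365, 7.99 and 0.951 CPM, and its counting intervals did not overlap either. Both genes were thus higher in non-dividing cells at 1 week than in those of the other libraries, and 10.1% of non-dividing 1-week cells had a Cdk1 UMI. Ccna2, the cyclin of S phase and G2, stood at 271, 122 and 111 CPM against 0.487, 1.55 and 0.432 CPM. Plk1, a kinase of spindle assembly, stood at 78.9, 60.0 and 43.5 CPM against 0.365, 0.734 and 0.519 CPM. The smallest ratio of the list belonged to Wee1, the kinase that restrains Cdk1, at 22.5, 38.1 and 51.4 CPM against 21.2, 16.0 and 32.0 CPM (1-week ratio 2.39, 1.80-3.14).

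Spindle and kinetochore genes were higher in 19 of 19 and 16 of 16 measured members at 1 week, with median log2 ratios of 5.88 and 5.38. Prc1, which bundles microtubules in the central spindle, stood at 631, 310 and 388 CPM in dividing and 1.46, 4.48 and 1.56 CPM in non-dividing cells of the control, 1-week and 2-month libraries. Cenpf, a kinetochore protein, stood at 654, 309 and 368 CPM against 0.973, 3.10 and 0.432 CPM (1-week ratio 99.8, 71.8-142). Birc5 (survivin), a part of the chromosomal passenger complex, stood at 383, 286 and 368 CPM against 0.243, 4.57 and 0.692 CPM. Their dividing sums lay far above the non-dividing sums in each library. Of 8 measured genes of mitotic exit 7 were higher, with a median log2 ratio of 2.42. Ube2c, the ubiquitin-conjugating enzyme of the anaphase-promoting complex, stood at 699, 377 and 376 CPM against 2.80, 5.71 and 0.432 CPM (1-week ratio 66.1, 51.6-85.7). Securin, Pttg1, was the exception, at 135, 46.0 and 47.5 CPM against 55.5, 40.0 and 56.7 CPM (1-week ratio 1.15, 0.904-1.44).

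Genes of DNA replication were also higher. At 1 week 12 of 12 measured licensing genes, 16 of 17 fork genes, 17 of 17 genes of chromatin assembly and 8 of 14 genes of nucleotide supply were higher, with median log2 ratios of 2.80, 2.79, 2.82 and 1.82, below those of the mitotic kinase, spindle and kinetochore lists. Mcm5, a subunit of the replicative helicase, stood at 90.2, 76.8 and 98.9 CPM in dividing cells of the control, 1-week and 2-month libraries and 4.99, 4.48 and 4.15 CPM in non-dividing cells. Its 1-week ratio was 17.1 (12.5-23.8). Pcna, the sliding clamp of DNA polymerase, stood at 158, 239 and 380 CPM against 146, 101 and 131 CPM, with 1-week ratio 2.36 (2.12-2.63). In the 5 control members it was close to the non-dividing level, and 60.2% of non-dividing 1-week cells had a Pcna UMI. Lig1, the ligase that joins Okazaki fragments, stood at 158, 188 and 135 CPM against 14.5, 13.9 and 11.9 CPM. Pola2, a polymerase alpha subunit, was the fork gene that missed 2-fold, at 11.3, 24.0 and 31.7 CPM against 35.9, 12.7 and 23.6 CPM.

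Precursor and chromatin genes differed widely among themselves. Rrm2 stood at 67.6, 100 and 123 CPM in dividing and 2.56, 2.93 and 0.951 CPM in non-dividing cells of the control, 1-week and 2-month libraries (1-week ratio 34.2, 23.8-50.2). Tk1, the thymidine kinase of the salvage route, stood at 180, 109 and 111 CPM against 0.730, 2.53 and 0.259 CPM. Ctps, which makes CTP, stood at 45.1, 37.6 and 23.7 CPM against 19.5, 34.9 and 31.7 CPM, a 1-week ratio of 1.08. Among the most abundant genes of the cycle lists, the chromatin protein gene Hmgb2 stood at 1375, 1018 and 1017 CPM against 107, 120 and 118 CPM, and the histone variant gene H2afz at 1567, 1613 and 2117 CPM against 378, 441 and 336 CPM. Dnmt1, which copies DNA methylation after replication, stood at 33.8, 141 and 229 CPM against 25.9, 21.5 and 26.1 CPM.

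Histone genes of the replication-dependent clusters were higher too. Their transcripts mostly end in a stem-loop in place of a poly(A) tail, which the library priming relies on, and near-identical copies can share reads, so single histone values are uncertain. Of 67 such genes 18 had enough UMIs at 1 week and 15 of these were higher. Their sum was 2322 against 177 CPM in the control, 1618 against 209 CPM at 1 week and 5840 against 221 CPM at 2 months, dividing against non-dividing. Hist1h1b alone stood at 327, 444 and 1480 CPM against 0.487, 2.12 and 0.173 CPM, and 1 cell held 47.1% of its UMIs in the 2-month members. At 1 week 48 of 84 members had a Hist1h1b UMI.

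The largest 1-week ratios by the naming rule belonged to Bub1, Pimreg, Depdc1a, Hist1h1b, Nusap1, Hist1h3c, Hist1h2ap, Pclaf, Cenpf, Esco2, Ncapg and Cep55. Bub1, the spindle checkpoint kinase on chromosome 2 at 127801122-127831865, stood at 67.6, 63.2 and 47.5 CPM in dividing cells and 0.122, 0.163 and 0.0865 CPM in non-dividing cells of the control, 1-week and 2-month libraries. The non-dividing 1-week sum held 2 UMIs, so the ratio of 387 had an interval from 105 to 3236. Pclaf, a PCNA-binding factor, stood at 135, 345 and 439 CPM against 0.608, 3.18 and 0.605 CPM, and was present in 71 of 84 members at 1 week. Nusap1, which binds spindle microtubules, stood at 327, 179 and 210 CPM against 1.34, 1.22 and 0.951 CPM. Outside the cycle lists the rule also named Hist1h2ae, Mxd3, Shcbp1 and Rad51ap1, with 1-week ratios from 60.3 to 73.3. Each of these genes was higher in dividing cells of each library. The cells were chosen by Mki67 and Top2a, so this describes the choice.

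Regulators at the entry to the cycle gave a mixed picture. Of 15 G1 cyclin and E2F genes 8 were higher and 1 lower at 1 week (median log2 ratio 1.11), and of 7 measured DREAM and MMB factors 4 were higher (1.81). Ccne1, cyclin E, stood at 0, 27.7 and 43.5 CPM in dividing cells of the control, 1-week and 2-month libraries and 5.11, 2.28 and 3.29 CPM in non-dividing cells, where 3 UMIs of the control members equal 33.8 CPM. E2f8, a repressor of the E2F family, stood at 33.8, 33.9 and 51.4 CPM against 0, 0.571 and 0.259 CPM. Foxm1, the activator of mitotic genes, stood at 113, 43.3 and 67.3 CPM against 1.82, 2.69 and 1.64 CPM. Ccnd1, the D-type cyclin that mitogens induce, stood at 338, 419 and 253 CPM against 148, 216 and 231 CPM and missed 2-fold at 1 week (1.94, 1.79-2.10). Its relative Ccnd2 went the other way, at 192, 19.8 and 107 CPM against 327, 46.9 and 191 CPM, 2.36-fold lower at 1 week (1.70-3.37). Per cell its level was close, 0.452 against 0.523 UMIs, and 31.6% of its dividing UMIs came from 1 cell.

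Inhibitors of cyclin-dependent kinases were split. Of 11 measured genes 2 were higher, 1 lower and 8 neither at 1 week (median log2 ratio -0.04 on CPM and 0.99 on UMIs per cell). Of all measured genes 5.49% were higher and 3.48% lower. The INK4 genes Cdkn2c and Cdkn2d were higher. Cdkn2c stood at 259, 73.6 and 166 CPM in dividing and 14.5, 12.8 and 19.2 CPM in non-dividing cells of the control, 1-week and 2-month libraries (1-week ratio 5.75, 4.55-7.27). Cdkn1c (p57) was lower on CPM, at 45.1, 22.5 and 35.6 CPM against 132, 52.4 and 75.7 CPM, but close per 1-week cell, at 0.512 against 0.585 UMIs. Cdkn1a (p21) stood at 349, 282 and 522 CPM against 1222, 329 and 460 CPM. In metabolism, 4 of 6 measured serine and one-carbon genes were higher (median 1.70), among them Mthfd2, a mitochondrial folate enzyme, at 11.3, 38.6 and 51.4 CPM against 9.25, 8.64 and 4.76 CPM. None of 13 glycolysis genes was 2-fold apart (median 0.17), and 1 of 10 ribosome biogenesis genes, Dkc1, was (2.14-fold, list median 0.46).

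**Figure D3:**
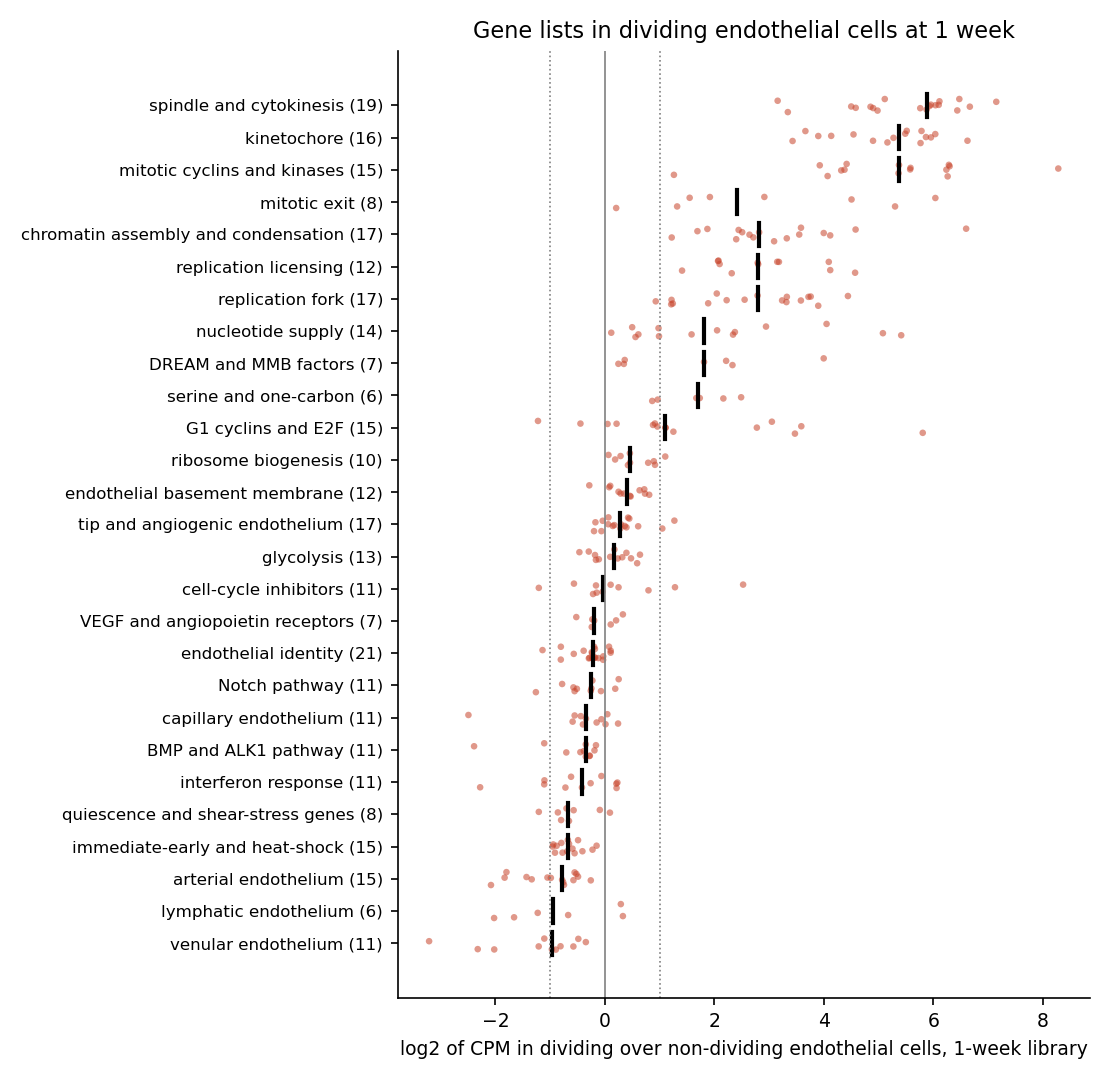
Log2 ratio of CPM in dividing over non-dividing endothelial cells of the 1-week library (x axis) for the measured genes (points) of 27 lists (y axis, number of measured genes in brackets). Black bars are list medians and dotted lines mark 2-fold. The mitotic cyclin and kinase, kinetochore and spindle lists lie at 5.37 to 5.88, mitotic exit at 2.42 and the venular list at -0.97, while the median of all genes is 0.04.

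Within the endothelial programme, the tip-cell list moved little, and its 2 calls held in some settings and ended in others. The 18 tip and angiogenic genes had a 1-week median log2 ratio of 0.28 over 17 measured members (1.31 on UMIs per cell, 0.05 against cells of like depth). Of the 17, 2 were higher and none lower, against 5.49% and 3.48% of all measured genes. Apln, the apelin peptide secreted by sprouting tip cells, stood at 11.3, 156 and 103 CPM in dividing cells of the control, 1-week and 2-month libraries and 34.1, 75.3 and 47.6 CPM in non-dividing cells. The intervals of dividing and non-dividing cells did not overlap at 1 week, and the ratio was 2.07 (1.81-2.36), or 1.90 (1.65-2.18) without the member with most Apln UMIs. Esm1, a proteoglycan of tip cells, stood at 0, 120 and 83.1 CPM against 63.0, 49.9 and 71.3 CPM, a 1-week ratio of 2.41 (2.06-2.81). The member with most Esm1 UMIs held 79 of 230, and without it the level was 79.9 CPM and the ratio 1.60 (1.33-1.92), so both calls ended. Leaving out the member with most UMIs of a gene favours a lower ratio. With every cell weighted equally, the log2 ratios of Apln and Esm1 were 1.04 and 1.65, above 2-fold. Against non-dividing cells of like depth they were 0.80 and 0.67, below 2-fold. Prnd, a prion-family gene of angiogenic endothelium, stood at 0, 209 and 135 CPM against 11.7, 137 and 36.1 CPM, a 1-week ratio of 1.52 (1.36-1.70). Aplnr, the apelin receptor, did not differ in this way, at 22.5, 331 and 162 CPM against 128, 316 and 148 CPM (1-week ratio 1.04, 0.959-1.14).

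Counted as cells with a UMI at 5000 UMIs per cell, the 1-week members showed the same order. Apln was detected in 32.1% of 84 dividing cells (22.4-43.2%) and 15.9% of 1019 non-dividing cells (13.7-18.3%), Prnd in 36.9% against 20.3%, and Esm1 in 16.7% (9.42-26.4%) against 6.38% (4.96-8.06%). Without thinning the shares were 59.5% against 21.7% for Apln, 59.5% against 25.9% for Prnd and 27.4% against 8.83% for Esm1. In macrophages of the same library, at the same depth, the 3 genes were found in 0.116%, 0.174% and 0.0581% of 1722 cells (median 9958 UMIs before thinning). Seen from the other side, 12.6% of Apln-positive endothelial cells were dividing against 5.53% of Apln-negative cells, and 16.3% of Esm1-positive against 6.04% of Esm1-negative cells. Aplnr (63.1% against 62.9%) and Plvap, a diaphragm protein of fenestrated vessels (95.2% against 94.1%), had overlapping counting intervals. Gpihbp1, the capillary anchor of lipoprotein lipase, was also found in more dividing cells, in 42 of 84 (38.9-61.1%) against 31.1% (28.3-34.1%), and in 0.581% of macrophages, although its CPM hardly differed (228 against 221 CPM). Lyve1, a lymphatic receptor that macrophages also carry, was found in 8.33% against 2.26% while its CPM was lower (14.1 against 22.8 CPM), so no order is read from it.

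Venular genes were lower as a share of RNA at 1 week. All 11 had lower CPM in dividing cells, 5 of them at least 2-fold, against 3.48% of all measured genes. Their 1-week median log2 ratio was -0.97 on CPM and 0.06 on UMIs per cell, against 0.04 and 1.07 over all genes. At 2 months 5 of the 11 had higher and 6 lower CPM in dividing cells, and none was called lower (median -0.38). There the list summed to 3549 CPM in dividing and 4106 CPM in non-dividing cells. Ackr1, the chemokine-binding receptor of venules on chromosome 1 at 173331886-173333750, stood at 22.5, 36.0 and 182 CPM in dividing cells of the control, 1-week and 2-month libraries and 304, 336 and 286 CPM in non-dividing cells. It was 9.33-fold lower at 1 week (7.36-12), and its log2 ratio was still -2.18 on UMIs per cell. Selp, the leukocyte adhesion molecule P-selectin, stood at 22.5, 271 and 566 CPM against 1104, 1101 and 951 CPM, 4.06-fold lower at 1 week (3.72-4.45). Vwf, the clotting glycoprotein stored with it, stood at 169, 53.8 and 392 CPM against 264, 270 and 512 CPM, 5.03-fold lower at 1 week (4.13-6.18). At 5000 UMIs per cell Ackr1 was found in 15.5% of dividing and 38.8% of non-dividing 1-week cells, Selp in 38.1% and 55.2%, and Vwf in 23.8% and 49.5%, against 0.523%, 2.03% and 2.32% of macrophages. Of Ackr1-positive endothelial cells 2.82% were dividing, of Ackr1-negative cells 9.06%. Lowering the threshold to 2 UMIs of Mki67 and Top2a brought the log2 ratio of Ackr1 from -3.21 to -1.95 and that of Selp from -2.02 to -1.29.

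**Figure D4:**
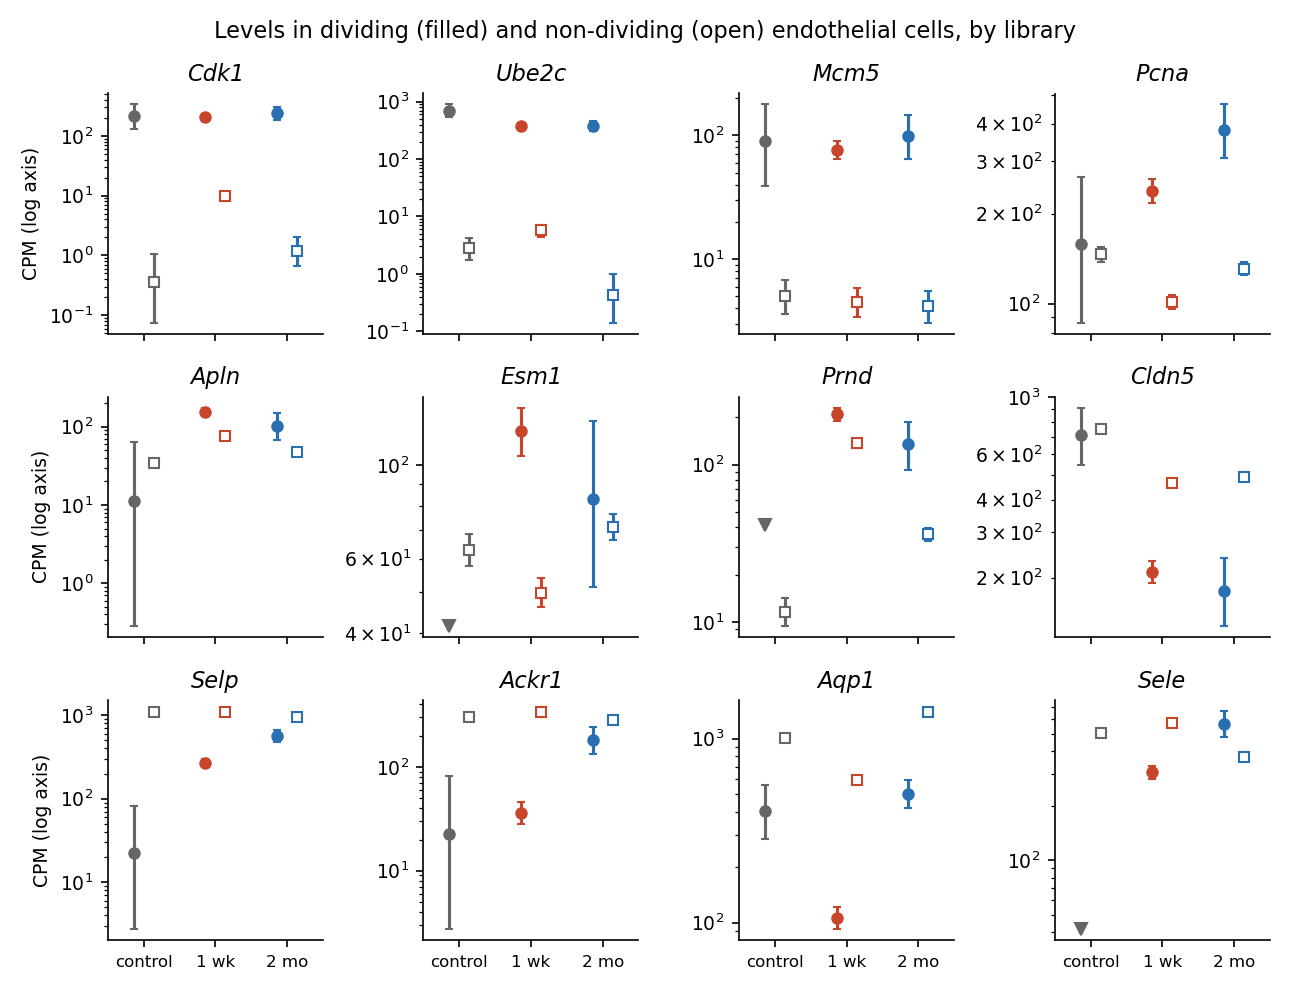
Level (CPM, log axis) of 12 genes in dividing (filled circles) and non-dividing (open squares) endothelial cells of the 3 libraries (x axis), with 95% Poisson intervals. Triangles mark sums with 0 UMIs, at the upper limit of the interval. Cdk1, Ube2c and Mcm5 stand apart in each library, and Ackr1 is lower in dividing cells at 1 week (36.0 against 336 CPM).

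Arterial and capillary genes were lower in part. All 15 arterial genes had lower CPM at 1 week, 6 at least 2-fold (median log2 ratio -0.78 on CPM, 0.25 on UMIs per cell). Of all measured genes 3.48% were at least 2-fold lower. Gja4, a gap junction protein of arteries, stood at 22.5, 37.6 and 31.7 CPM in dividing cells of the control, 1-week and 2-month libraries and 105, 132 and 62.4 CPM in non-dividing cells, and 41.7% of its 1-week dividing UMIs came from 1 cell. Fbln2, a matrix protein gene on the same list, stood at 845, 193 and 451 CPM against 474, 521 and 444 CPM, so it was higher in dividing control cells and lower at 1 week. Of 11 measured capillary genes 1 was lower, Aqp1, a water channel of capillary endothelium (median log2 ratio -0.35 on CPM, 0.68 on UMIs per cell). It stood at 406, 106 and 502 CPM against 1004, 598 and 1392 CPM, 5.64-fold lower at 1 week (4.91-6.52) and still lower on UMIs per cell (log2 ratio -1.46) and against cells of like depth (-1.67, from -2.49). Fabp4, an abundant fatty acid carrier of capillary endothelium, stood at 3190, 3658 and 3482 CPM against 11744, 4963 and 5069 CPM. Gpihbp1, more frequent by cells at 1 week, stood at 158, 228 and 142 CPM against 390, 221 and 148 CPM.

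Among identity genes 18 of 21 had lower CPM at 1 week (median log2 ratio -0.21 on CPM, 0.82 on UMIs per cell). Only 1 of 21 was at least 2-fold lower, near the 3.48% of all measured genes. It was Cldn5, the tight junction claudin of endothelium, at 710, 210 and 178 CPM in dividing cells of the control, 1-week and 2-month libraries and 753, 464 and 492 CPM in non-dividing cells. It was 2.21-fold lower at 1 week (1.99-2.45), while its level per cell was close, 4.80 against 5.18 UMIs. None of the 7 receptors for VEGF and angiopoietins was 2-fold apart at 1 week. Kdr, the main VEGF receptor, stood at 33.8, 450 and 522 CPM against 317, 418 and 483 CPM, and Flt1, the decoy-like VEGF receptor, at 327, 569 and 795 CPM against 773, 673 and 962 CPM.

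**Figure D5:**
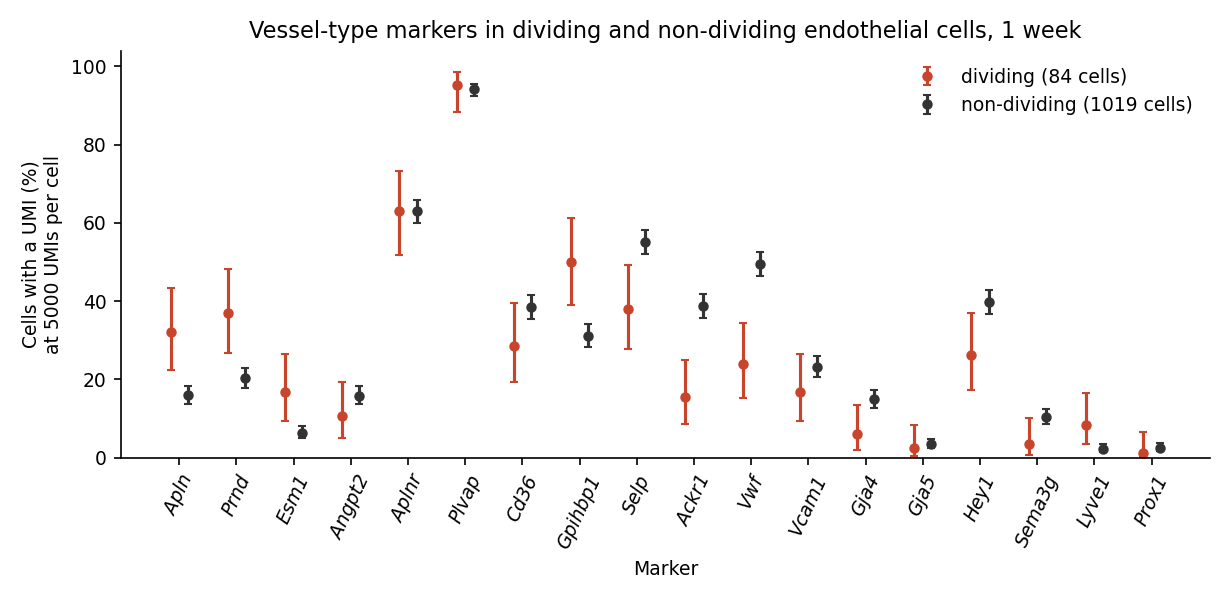
Percent of cells with a UMI (y axis) of 18 vessel-type markers (x axis) in 84 dividing and 1019 non-dividing endothelial cells of the 1-week library, each thinned to 5000 UMIs. Points are shares and bars 95% Clopper-Pearson intervals. Apln, Prnd, Esm1 and Gpihbp1 are more frequent in dividing cells (32.1%, 36.9%, 16.7% and 42 of 84 cells), as is Lyve1 (8.33%, against its CPM), and Ackr1, Selp and Vwf less frequent (15.5%, 38.1% and 23.8%).

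Signalling and matrix lists lay nearer to the median of all genes (0.04) than the venular and arterial lists. Their 1-week median log2 ratios were -0.26 for Notch and -0.35 for BMP and ALK1. Of all measured genes 3.48% were at least 2-fold lower. Of 11 measured Notch genes 1 was lower at 1 week, Dll1, a ligand, at 0, 14.6 and 35.6 CPM in dividing against 60.0, 35.6 and 57.8 CPM in non-dividing cells of the control, 1-week and 2-month libraries. Hes1, a Notch target, stood at 282, 1682 and 878 CPM against 1100, 2400 and 1411 CPM. Of 11 genes of the BMP and ALK1 route 2 were lower, the ligand genes Bmp4 and Bmp6, the latter with 3 UMIs in the dividing sum. Basement membrane genes had higher CPM in 11 of 12, none of them 2-fold (median log2 ratio 0.40, and 1.43 on UMIs per cell). Col4a1, a chain of type IV collagen, stood at 744, 3033 and 2089 CPM against 590, 2191 and 892 CPM. The summed list stood at 6966, 12858 and 8965 CPM against 3356, 10586 and 4991 CPM, so it was higher in dividing cells of each library.

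Genes of rest and of stress had lower shares of RNA. Over all measured genes 3.48% were at least 2-fold lower at 1 week, and the median log2 ratio was 0.04. Of 8 quiescence and shear-stress genes 1 was at least 2-fold lower at 1 week (median log2 ratio -0.68 on CPM, 0.35 on UMIs per cell). Klf2, the flow-induced factor of resting endothelium, stood at 1060, 380 and 942 CPM in dividing and 1764, 662 and 992 CPM in non-dividing cells of the control, 1-week and 2-month libraries. All 15 immediate-early and heat-shock genes, which digestion of tissue can induce, had lower CPM at 1 week, none of them 2-fold (median -0.68 on CPM, 0.35 on UMIs per cell). Their sum stood at 6358, 6181 and 13847 CPM in dividing and 20156, 9899 and 16438 CPM in non-dividing cells. Of 11 measured interferon response genes 3 were lower, Ifit1, Ifit3 and Ifi27l2a (median -0.42 on CPM, 0.61 on UMIs per cell). Ifit1, an RNA sensor, stood at 0, 11.0 and 19.8 CPM against 39.3, 54.5 and 26.9 CPM.

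The lowest 1-week ratios by the naming rule belonged to Cytl1, Car3, Chp2, Rasgef1a, Fgl2, Ackr1, Glycam1, Fmo2, Sulf1, Tagln, Mgp and Lbp. Cytl1, a secreted cytokine-like protein, stood at 383, 0 and 123 CPM in dividing cells of the control, 1-week and 2-month libraries and 297, 30.5 and 298 CPM in non-dividing cells. It was at least 19.5-fold lower at 1 week, with a floor of 3 UMIs over the dividing sum, and its 374 non-dividing UMIs came from 33 cells. Car3, a carbonic anhydrase abundant in fat cells, rested on 1 cell: 281 of its 282 non-dividing UMIs came from a cell that Scrublet called a doublet. Chp2, a calcineurin-like calcium-binding protein, stood at 90.2, 4.70 and 47.5 CPM against 210, 66.7 and 152 CPM, 14.2-fold lower at 1 week (7.44-31.1). Glycam1, a mucin-like ligand for L-selectin made by high endothelial venules, stood at 0, 3.13 and 0 CPM against 0.122, 29.3 and 36.1 CPM. Tagln and Mgp are also abundant in mural cells, whose 7 markers summed to 65.8 against 121 CPM at 1 week, and their part was not tested. Mgp, an inhibitor of calcification, stood at 5028, 72.6 and 427 CPM against 1570, 421 and 1733 CPM, so in the control it was higher in the dividing cells. Of its dividing UMIs, 59.9% in the control and 62.0% at 2 months came from 1 cell of that library.

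Between the 1-week and 2-month libraries few replication and mitotic genes were called 2-fold apart in dividing cells, and 6 of 11 venular genes were lower at 1 week. With 1 library per group this is a comparison of the libraries. The dividing sums held 1915127 UMIs at 1 week and 252756 at 2 months, so genes met the minimum of UMIs mainly through the 1-week sum. Of 5884 genes with at least 50 UMIs in the dividing sums, 178 (3.03%) were at least 2-fold higher and 248 (4.21%) lower at 1 week than at 2 months. None of 19 spindle, 15 kinetochore, 12 licensing and 16 fork genes was called 2-fold apart between these libraries, and 1 of 14 mitotic cyclins and kinases, Pbk, was lower at 1 week. The medians of these lists lay between -0.36 and -0.21. A gene near the minimum of UMIs had few 2-month UMIs and a wide interval. A 2-fold difference could then go uncalled, so the few calls do not show equal levels. Of 9 measured cell-cycle inhibitors 3 were lower at 1 week, Cdkn2c, Cdkn2d and Rb1 (median -0.73), and the replication-dependent histone genes summed to 1618 against 5840 CPM. Venular genes were lower at 1 week in 6 of 11 (median log2 ratio -1.03), while in non-dividing cells none of 11 was 2-fold apart (median 0.17, against 2.81% of all genes higher and 7.69% lower). The difference between these medians was not tested, and at 2 months Selp UMIs came from 6 of the 12 dividing cells. Ackr1, 1 of the 6 genes, had UMIs in 5 of these cells, with 67.4% of them from 1 cell. Per 10000 UMIs, the venular genes gave 1.84 to 121 UMIs per member at 2 months (median 17.8). At 1 week they gave 0.375 to 87.1 UMIs (median 10.9). The 18 tip and angiogenic genes summed to 4308 CPM in dividing cells of 1 week and 3644 CPM in those of 2 months, and to 3884 and 3010 CPM in non-dividing cells, where 7 of 18 were higher and 2 lower at 1 week.

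Against the control, 421 of 5594 genes (7.53%) were higher and 343 (6.13%) lower in dividing 1-week cells, the control side being 5 cells with 88712 UMIs. The 18 tip and angiogenic genes summed to 4308 CPM in dividing cells of 1 week and 1747 CPM in those of the control, where 5 of them were at 0. No count of calls is read for any list of dividing cells here, since a gene passed the minimum of UMIs almost only through the larger 1-week sum. The same limit holds for the counts over all genes. In non-dividing cells the tip and angiogenic list summed to 3884 and 2758 CPM. There 8 of 18 genes were higher and 3 lower at 1 week (5.17% of all genes were higher and 8.21% lower). Basement membrane genes summed to 12858 CPM in dividing cells of 1 week and 6966 CPM in those of the control, and to 10586 and 3356 CPM in non-dividing cells. The 15 immediate-early and heat-shock genes, all measured, had a median log2 ratio of 0.09 in dividing and -1.18 in non-dividing cells. Mitotic cyclins and kinases summed to 1133 CPM in dividing cells of 1 week and 1713 CPM in those of the control, and spindle genes to 2032 and 3111 CPM. The spindle UMIs came from 3 of the 5 control members. The 2 comparisons of 1 week share the 1-week cells, and 1 of the 5 control members carried macrophage UMIs, whose part was not tested.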

How the data were processed

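The deposited matrices hold raw UMI counts per gene and barcode, whole numbers without normalization. Cell Ranger 5.0.0 (control, 1 week) and 5.0.1 (2 months) made them, per the file headers, while the submitters' processing notes name Cell Ranger 6.0.1 and mm10. The libraries held 96782789, 179561680 and 159333121 UMIs in 9003, 13986 and 10799 barcodes. UMIs were summed over dividing and over non-dividing cells of a library and given as CPM, with exact 95% intervals: Poisson for CPM, Clopper-Pearson for shares, conditional binomial for ratios. Log2 ratios used a pseudocount of 0.5 UMI. A gene was measured with at least 50 UMIs in the 2 sums and called higher or lower at 2-fold with an interval off 1. With 1 library per group no test was run. Doublets were called with Scrublet (scanpy 1.11.5) and kept, since no member was called. Thinning drew 5000 UMIs per cell without replacement.

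Named genes had at least 100 UMIs and 20 CPM in 1 sum and the 12 highest, 12 highest outside the cycle lists and 12 lowest ratios of libraries with at least 20 dividing cells, here 1 week, without mitochondrial, ribosomal, haemoglobin, sex-linked, Gm and Rik genes. No pair of libraries met the rule for naming between libraries. Members, gene lists and settings were chosen with earlier results of these data known. The ratios and intervals were run on simulated Poisson counts, the model that the intervals assume. This checks the computation only, since the simulated counts hold none of the unevenness among cells. Software was Python 3.11.15, numpy 2.4.6, scipy 1.17.1 and pandas 2.3.3. Promoter windows came from RefSeq (GRCm38.p6), gene positions from GENCODE vM21.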

Additional observations from a re-analysis of the deposited data

Results flagged for a closer look

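Sele, the adhesion molecule E-selectin that activated venules show to leukocytes, differed in direction between libraries. At 1 week it stood at 306 CPM in dividing and 570 CPM in non-dividing endothelial cells (log2 ratio -0.90), with UMIs in 48 of 84 members. At 2 months it stood at 566 against 373 CPM (0.61), with UMIs in 5 of 12 members. In the control no UMI was found in the 5 members, against 503 CPM in non-dividing cells, at least 14.9-fold lower with a floor of 3 UMIs. Without the member with most Sele UMIs the 1-week log2 ratio was -1.02. On UMIs per cell the 1-week log2 ratio was 0.13. The difference between the libraries was not tested.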

How the results depend on the processing

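No paired analysis was possible because each group was 1 library. The order of the shares, highest at 1 week and lowest in the control, held in each setting. With at least 2 UMIs of Mki67 and Top2a the share was 8.26% at 1 week and 2.26% at 2 months, with at least 5 UMIs 5.03% at 1 week, and thinned to 5000 UMIs 4.02% at 1 week. The ratio of 1 week to control ranged from 7.0 to 24.7, that of 2 months to control from 1.44 to 5.29 and that of 1 week to 2 months from 3.65 to 5.36. On UMIs per cell 5725 genes were higher and 50 lower, because each ratio was raised by the same 1.03 log2 units. Against 163 non-dividing cells of like depth 427 genes were higher and 169 lower, with 8307 genes measured. The other settings gave 508 to 728 higher and 294 to 493 lower genes. Car3 reversed to a log2 ratio of 1.08 without Scrublet calls and 0.76 at like depth, since both settings left out the cell with 281 of its UMIs and the pseudocount then set the value. Chosen after seeing the data were: keeping only members with other cycle genes, leaving out cells over 10% haemoglobin, and leaving out the member with most UMIs of a gene. The last setting favours lower ratios and ended the calls of Apln and Esm1. Both stayed above 2-fold with every cell weighted equally (log2 ratios 1.04 and 1.65). Of 290 list medians under other settings 265 stayed within the order-statistic interval of the median over the list's genes, and of 1034 gene ratios 869 stayed within their counting interval. The 5 control and 12 members of 2 months limit every value from those libraries.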

Other observations

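Antigen presentation genes were read alongside the vessel genes. The 9 MHC class I genes summed to 6470, 3611 and 4756 CPM in dividing and 5310, 4465 and 3934 CPM in non-dividing endothelial cells of the control, 1-week and 2-month libraries, and none was 2-fold apart at 1 week. The 5 MHC class II genes, low in both, summed to 180, 41.8 and 111 CPM against 330, 74.8 and 110 CPM. Lymphatic genes had a lower sum in dividing cells of 2 months: the 7 genes summed to 67.3 CPM against 572 CPM in non-dividing cells, and at 1 week to 58.5 against 86.2 CPM. Without equal depth, 9 of the 12 members of 2 months had a UMI of the list, against 38.2% of non-dividing cells. With 12 members the 2-month sum is uncertain. Prox1, the master factor of lymphatic endothelium, had 1 UMI in the 12 members of 2 months, 6 UMIs in the 84 members of 1 week and none in the 5 members of the control.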
